A study of Mus musculus with 18 samples.

Results

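The 9 genes described here belong to the transforming growth factor beta (TGF-beta) system. They are the ligands *Tgfb1*, *Tgfb2* and *Tgfb3*, the receptors *Tgfbr1*, *Tgfbr2* and *Tgfbr3*, the latent binding proteins *Ltbp1* and *Ltbp2*, and the feedback inhibitor *Smad7*. They were chosen by symbol and matched to the Ensembl rows of the count table, which gave 9 of its 38924 genes, and all 9 were among the 16577 genes tested. Fibroblasts of the heart (HF), kidney (KF) and tail (TF) came from male Rosa mT/mG mice aged 10 weeks, on a C57BL/6 background, and were grown for 10 days. One portion of the cells was placed on gelatin foam below the kidney capsule of syngeneic C57BL6/J recipients aged 10 to 11 weeks, and after 3 days the live CD45-;TdTomato+ cells were sorted and gave the transplanted groups HFs, KFs and TFs. The rest was plated again for 3 more days and gave the cultured groups HFc, KFc and TFc. All 6 groups, with 3 libraries each, carry the reporter. The Rosa locus drives it in all donor cell types, so the gate marks donor cells and not fibroblasts as such, and transplantation, the sort and the days outside culture cannot be told apart. The study calls the replicates biological, but no source used here says that they came from separate animals, cultures or transplants, and p-values measure the spread between these libraries.

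TGF-beta ligands are secreted in a latent form, in which the propeptide is tied to a latent binding protein and stored on the fibrillin network of the matrix. Integrins, thrombospondin and proteases release the active dimer, which joins the type II receptor to the type I receptor, and the type I receptor phosphorylates SMAD2 and SMAD3. In fibroblasts this pathway is best known for driving matrix production and conversion to the contractile myofibroblast, and it induces its own inhibitor, SMAD7.

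Library totals ran from 17927838 to 32245168 counts, and the 9 genes had between 286 and 99886 counts in a library. Levels are given as CPM on the scale set by TMM normalization, which puts libraries of unequal depth on the same footing, for replicates 1, 2 and 3 in turn. The summed CPM of 8 fibroblast genes lay between 5550 and 6800 in the cultured libraries and between 11500 and 33000 in 8 of the 9 transplanted ones. *Col1a2* and *Col5a1* carried these sums, *Lum* was at 0.786 CPM or less in all HFc and KFc libraries and *Dpt* at 1.60 CPM or less in KFc. *Thy1* ran the other way in heart fibroblasts, from 123 to 130.4 CPM in HFc and from 24.9 to 44.5 CPM in HFs. It did so in tail fibroblasts too, from 232 to 246.6 CPM in TFc and from 123 to 194.6 CPM in TFs. There *Mfap5* was lower as well, from 126 to 137 CPM in TFc and from 79.0 to 90.1 CPM in TFs. *Col5a1* in TFs replicates 2 and 3 lay below all TFc libraries. KFs replicate 3 stood apart with 6330 CPM, and it had 1490 CPM of *Xist* and 0.722 CPM of Y-linked genes, against at most 0.404 CPM and between 175 and 230 CPM in the other libraries, although all donors were male. Its transcripts therefore go against the label, and for the kidney results it moves most values without it are given as well. Sums over 8 proximal tubule genes lay between 14.0 and 20.2 CPM in HFc and TFc, between 95.6 and 102 CPM in KFc and between 50.2 and 1010 CPM in the transplanted libraries, with HFs replicate 2 highest. Of those genes, 4 in HFc, 5 in KFc and 3 in TFc were at 0 in all libraries of the group, and none was in a transplanted group. *Lrp2* carried the KFc sum, at 92.05 to 99.19 CPM, and it was at 22.66 to 55.24 CPM in KFs. Sums over 8 macrophage genes lay between 99.0 and 116 CPM in HFc and 98.2 and 164 CPM in HFs, between 432 and 463 CPM in KFc and 12.2 and 142 CPM in KFs, and between 179 and 207 CPM in TFc and 37.5 and 46.7 CPM in TFs. Sums over 7 endothelial genes lay between 39.7 and 42.6 CPM in HFc and wholly above that in HFs, between 58.9 and 68.6 CPM, between 35.0 and 37.1 CPM in KFc and 25.2 and 46.7 CPM in KFs, and between 37.6 and 43.0 CPM in TFc and 42.5 and 46.7 CPM in TFs. In heart fibroblasts *Tek* had the largest change of the endothelial genes in CPM, though not as a ratio, from 12.02 to 14.0 CPM in HFc and from 22.33 to 35.17 CPM in HFs. *Pecam1* was at 27.11 to 28.25 CPM in HFc and at 24.24 to 29.77 CPM in HFs. The other endothelial genes were at 3.607 CPM or less in HFs, and each lay above all HFc libraries there. *Cdh5* was at 0.036 to 0.339 CPM in HFc and at 1.454 to 3.427 CPM in HFs. *Kdr* was at 0.101 to 0.547 CPM in HFc and at 1.822 to 3.607 CPM in HFs. *Emcn* was at 0 in all HFc libraries and at 1.202 to 1.763 CPM in HFs. The part of these other cell types in the results below was not tested. In bulk RNA, fewer cells of a type and less RNA per cell cannot be told apart. The median SD of a gene on the log2 scale was between 0.0986 and 0.101 in the cultured groups, and 0.164 in HFs, 0.273 in KFs and 0.137 in TFs, while the fit used here gave all groups a common spread per gene.

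Promoters are shown for *Tgfb1* and *Tgfb2*, ligands that moved in opposite directions in heart fibroblasts, and for *Ltbp2*, which had the largest change of the 9 genes, and they were picked with these values known. The sequences are from RefSeq (GRCm38.p6). Each window runs from 250 to 51 bases before the annotated start and is printed 5′ to 3′ on the gene's strand. Capitals mark the letters CAGAC (the SMAD box) and GGGCGG (the GC box) on either strand. The AP-1 letters TGACTCA and the TATA letters TATAAA were searched as well and had no match in these windows, and no capital letter belongs to more than 1 motif.
Tgfb1 (chr7:25686752-25686951, plus strand): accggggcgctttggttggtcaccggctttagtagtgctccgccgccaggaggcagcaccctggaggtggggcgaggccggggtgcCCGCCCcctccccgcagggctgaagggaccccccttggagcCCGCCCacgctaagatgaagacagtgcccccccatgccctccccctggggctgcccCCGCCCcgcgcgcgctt
Tgfb2 (chr1:186706040-186706239, minus strand): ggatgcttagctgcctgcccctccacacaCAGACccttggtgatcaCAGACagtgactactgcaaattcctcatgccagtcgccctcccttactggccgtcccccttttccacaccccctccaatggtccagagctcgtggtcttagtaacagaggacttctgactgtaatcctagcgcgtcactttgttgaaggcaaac
Ltbp2 (chr12:84876542-84876741, minus strand): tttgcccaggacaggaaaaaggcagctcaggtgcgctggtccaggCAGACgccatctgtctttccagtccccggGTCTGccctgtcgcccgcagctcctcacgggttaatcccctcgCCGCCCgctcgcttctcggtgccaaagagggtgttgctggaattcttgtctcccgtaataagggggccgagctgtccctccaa
The *Tgfb1* window had 3 GC boxes and no SMAD box, the *Tgfb2* window had 2 SMAD boxes and no GC box, and the *Ltbp2* window had 2 SMAD boxes and 1 GC box. Of 32851 RefSeq promoter windows of this length, 35.8% held the SMAD box letters, 24.6% the GC box letters, 3.61% the AP-1 letters and 9.14% the TATA letters. These matches are a description of the sequence.

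In the comparison of transplanted with cultured cells, a gene was called at an adjusted p under 0.05 and a log2 fold change beyond 1 in either direction. *Smad7* fell in all 3 organs, *Tgfb2* fell in heart and kidney fibroblasts and *Tgfb3* in kidney and tail fibroblasts. The 3 receptors, *Tgfb1* and *Ltbp2* rose in heart fibroblasts. Of the heart calls, that of *Smad7* lay at the limit (-1.01, and -0.865 without HFs replicate 1), and the other 6 held when any of the 6 libraries compared was left out, HFs replicate 2 with its high tubule sum included. In HFs against HFc 7 of the 9 genes were called, 5 higher and 2 lower, beside 27.7% of all genes tested, 18.3% higher and 9.33% lower. In KFs against KFc 3 of 9 were called, all lower, beside 22.6% of all genes, 14.7% higher and 7.99% lower. In TFs against TFc 2 of 9 were called, both lower, beside 16.5% of all genes, 11.0% higher and 5.53% lower. The median log2 fold change of the 9 genes was 1.10 in heart, 0.07 in kidney and -0.29 in tail fibroblasts, and over all genes it was 0.05, 0.09 and 0.00. The shares called were thus 77.8%, 33.3% and 22.2%, well above the background in heart fibroblasts and nearer to it in kidney and tail fibroblasts, where so few genes make a share coarse. The 9 genes were chosen with earlier results of these data known, so the distance from the background is a description and not a test.

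**Figure D1:**
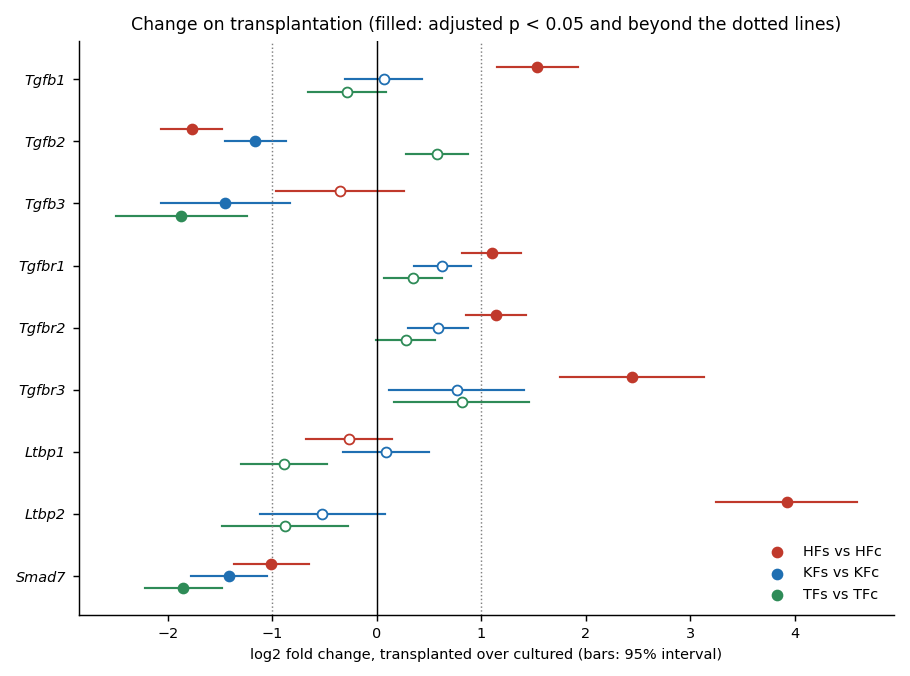
Log2 fold change of the 9 genes, transplanted over cultured, in heart (red), kidney (blue) and tail (green) fibroblasts. Points are estimates from 3 against 3 libraries, bars are 95% intervals, and filled points passed the adjusted p of 0.05 and the limits drawn as dotted lines at -1 and 1. *Smad7* is filled on the left in all 3 organs, and *Ltbp2* in heart fibroblasts lies farthest right at 3.92.

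Among the ligands, *Tgfb1* (ENSMUSG00000002603, chr7:25687002-25705077, plus strand), the isoform best known from fibrosis, had its lowest level in cultured heart fibroblasts. It was at 12.8, 13.7 and 14.1 CPM in HFc and at 50.2, 36.9 and 30.8 CPM in HFs. The groups did not overlap, and *Tgfb1* rose 2.90-fold (a log2 fold change of 1.54 ± 0.18 SE, adjusted p = 4.29e-06). In kidney fibroblasts it was at 49.3, 49.7 and 48.9 CPM in KFc and at 37.8, 66.0 and 51.0 CPM in KFs. The KFs libraries lay on both sides of the KFc libraries, with a log2 fold change of 0.07 (95% interval -0.30 to 0.43), which was -0.20 without KFs replicate 2. In tail fibroblasts the levels were 40.3, 33.5 and 37.4 CPM in TFc and 30.7, 31.7 and 28.7 CPM in TFs, a log2 fold change of -0.29 (adjusted p = 0.208). In order of the means, KFs, KFc, HFs and TFc overlapped each with the next, TFs lay below TFc and HFc lay below all.

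*Tgfb2* (ENSMUSG00000039239, chr1:186622792-186705989, minus strand), a ligand that needs the type III receptor for efficient binding, ran the other way in heart fibroblasts. Its levels were 221, 214 and 230.2 CPM in HFc and 70.3, 63.9 and 60.5 CPM in HFs and it fell, with every HFs library far below every HFc library (a log2 fold change of -1.77 ± 0.14 SE, adjusted p = 7.87e-08). In kidney fibroblasts it was at 122, 127 and 112 CPM in KFc and at 60.6, 54.3 and 46.6 CPM in KFs, a fall with a log2 fold change of -1.16 ± 0.14 SE (adjusted p = 6.13e-06), which was -1.11 (adjusted p = 8.9e-06) without KFs replicate 3. Tail fibroblasts had little of it, 15.7, 18.9 and 17.9 CPM in TFc and 20.1, 26.0 and 32.1 CPM in TFs. Every TFs library lay above every TFc library, and the log2 fold change of 0.57 (adjusted p = 0.00441) was within the limit of 1. The groups followed each other from HFc over KFc, HFs, KFs and TFs to TFc, and among neighbours in that order only HFs and KFs overlapped.

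*Tgfb3* (ENSMUSG00000021253, chr12:86056745-86079041, minus strand), the isoform known from palate fusion and scar-poor healing, was the ligand with the highest level per kb in every group. It was at 397, 399.7 and 384 CPM in TFc and at 96.7, 99.4 and 126 CPM in TFs, and it fell 3.66-fold (a log2 fold change of -1.87 ± 0.29 SE, adjusted p = 0.000154). In KFc it was at 214, 212 and 212 CPM and in KFs at 122, 67.6 and 44.4 CPM. This was a fall with a log2 fold change of -1.45 ± 0.29 SE (adjusted p = 0.00076), and of -1.21 (adjusted p = 0.00105) without KFs replicate 3, the lowest of the group. In heart fibroblasts the levels were 166, 167 and 172 CPM in HFc and 162, 157 and 76.9 CPM in HFs. HFs replicates 1 and 2 lay just below HFc and replicate 3 far below, and the log2 fold change of -0.35 had an interval of -0.96 to 0.26.

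To compare the ligands with each other, levels were divided by the length of the union of their exons (5042 bases for *Tgfb1*, 5791 for *Tgfb2* and 3383 for *Tgfb3*). On this scale *Tgfb3* made up 91.8% ± 0.392 (SD, n = 3) of ligand transcripts in TFc and 75.0% ± 1.86 in TFs. *Tgfb2* held 42.2% ± 0.622 in HFc and 20.3% ± 5.44 in HFs, and 2.39% ± 0.235 in TFc and 10.6% ± 1.28 in TFs. The share of *Tgfb1* was 2.96% ± 0.122 in HFc and 13.7% ± 2.17 in HFs, 10.5% ± 0.0856 in KFc and 25.7% ± 10.2 in KFs (13.9% and 30.8% in replicates 1 and 2), and 5.80% ± 0.543 in TFc and 14.4% ± 2.36 in TFs. In each organ the lowest share of *Tgfb1* in a transplanted library was above the highest in a cultured one. The sum of the 3 ligands was 90.8 ± 2.38 CPM per kb in HFc and 58.0 ± 16.4 in HFs, 93.4 ± 1.41 in KFc and 42.5 ± 11.3 in KFs (53.9 and 42.4 in replicates 1 and 2), and 127 ± 2.39 in TFc and 42.3 ± 5.51 in TFs. The summed level was thus lower in every transplanted group, and no transplanted library reached a cultured one of its organ. These sums and shares are descriptions without a test, and the shares of the 3 ligands are tied to each other because they add up to the whole.

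**Figure D2:**
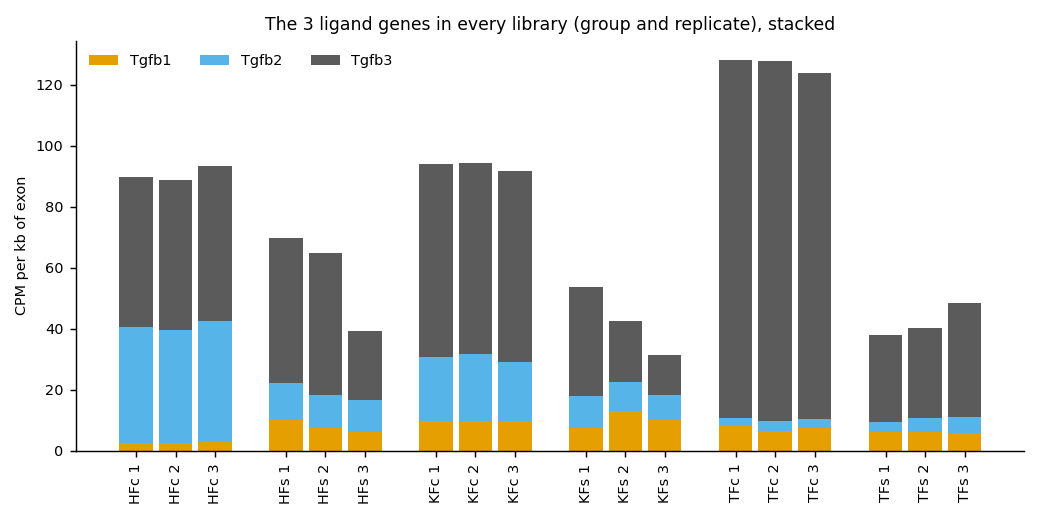
Levels of *Tgfb1*, *Tgfb2* and *Tgfb3* in CPM per kb of exon, stacked, with a bar for each of the 18 libraries. *Tgfb3* is the largest part of every bar, *Tgfb2* is large in HFc and thin in TFc, and the transplanted bars are shorter than the cultured bars of the same organ.

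The 3 receptors all rose in heart fibroblasts. *Tgfbr1* (ENSMUSG00000007613, chr4:47353222-47414931, plus strand), the type I receptor kinase that passes the signal on to SMAD proteins, was at 28.8, 28.1 and 36.9 CPM in HFc and at 71.3, 71.4 and 57.8 CPM in HFs (a log2 fold change of 1.10 ± 0.13 SE, adjusted p = 4.96e-06). It was at 86.2, 93.9 and 87.6 CPM in KFc and at 153, 149.6 and 110.0 CPM in KFs, with a log2 fold change of 0.62 (adjusted p = 0.000917), and 0.72 without KFs replicate 3. In TFc it was at 39.6, 38.5 and 37.8 CPM and in TFs at 51.8, 44.8 and 50.9 CPM, with a log2 fold change of 0.35 (adjusted p = 0.0462). In all 3 organs the transplanted libraries lay above the cultured ones, but in kidney and tail fibroblasts the estimate was within the limit of 1.

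*Tgfbr2* (ENSMUSG00000032440, chr9:116084293-116175360, minus strand), the type II receptor kinase that binds the ligand first, was at 98.4, 97.1 and 97.2 CPM in HFc and at 202, 226 and 219.6 CPM in HFs (a log2 fold change of 1.14 ± 0.14 SE, adjusted p = 4.35e-06). In kidney fibroblasts the levels were 147, 143 and 143 CPM in KFc and 285, 195 and 171 CPM in KFs, and in tail fibroblasts 151, 161 and 152 CPM in TFc and 177, 179.7 and 206 CPM in TFs. The log2 fold changes there were 0.58 (adjusted p = 0.00199) and 0.28 (adjusted p = 0.113), without overlap between cultured and transplanted libraries. HFc was the lowest group, and the 3 transplanted groups overlapped each with the next. Within an organ the balance of the signalling receptors differed little between states. *Tgfbr1* made up 28.5% ± 3.18 (SD, n = 3) of the sum of *Tgfbr1* and *Tgfbr2* per kb in HFc and 28.0% ± 2.98 in HFs, 43.6% ± 1.39 in KFc and 44.6% ± 4.38 in KFs, and 23.8% ± 0.845 in TFc and 24.7% ± 1.78 in TFs. These shares overlapped between states in each organ, and kidney fibroblasts had the highest share in both states.

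*Tgfbr3* (ENSMUSG00000029287, chr5:107106570-107289629, minus strand) encodes betaglycan, a proteoglycan that presents ligand to the signalling receptors. It was at 20.4, 14.7 and 19.3 CPM in HFc and at 78.3, 85.2 and 132 CPM in HFs, and it rose 5.43-fold (a log2 fold change of 2.44 ± 0.32 SE, adjusted p = 1.31e-05). In KFc it was at 86.1, 88.9 and 90.7 CPM and in KFs at 209, 180.0 and 62.1 CPM. KFs replicates 1 and 2 lay above KFc and replicate 3 below it. The log2 fold change of 0.76 (adjusted p = 0.0485) was not called, and without replicate 3 it was 1.09 (adjusted p = 5.99e-05) and called. Tail fibroblasts had the most, 284, 282 and 292 CPM in TFc and 455, 516 and 533 CPM in TFs, with a log2 fold change of 0.81 (adjusted p = 0.0448) and no overlap. Of the receptor transcripts per kb, *Tgfbr3* made up 14.2% ± 1.86 in HFc, 30.2% ± 0.695 in KFc and 63.8% ± 0.989 in TFc, and 28.8% ± 6.25 in HFs, 30.9% ± 9.36 in KFs and 71.5% ± 1.56 in TFs. In KFs replicates 1 and 2 it was 35.4% and 37.1%, above all KFc libraries (29.7% to 31.0%), and in replicate 3 it was 20.1%, below them.

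The latent binding proteins held the largest change. *Ltbp2* (ENSMUSG00000002020, chr12:84783212-84876532, minus strand), a fibrillin-associated matrix protein of this family that does not itself bind latent TGF-beta, was at 41.9, 45.3 and 37.3 CPM in HFc and at 882, 709 and 302 CPM in HFs. It rose 15.2-fold (a log2 fold change of 3.92 ± 0.32 SE, adjusted p = 1.08e-07), and the lowest HFs library, replicate 3, was still well above all HFc libraries. Other groups already had much more of it. The levels were 1179, 1175 and 1124 CPM in KFc and 768, 1099 and 557 CPM in KFs (a log2 fold change of -0.52, adjusted p = 0.14), and 2964, 2898 and 2983 CPM in TFc and 1514, 1602 and 1694 CPM in TFs (a log2 fold change of -0.88, adjusted p = 0.0227). In both organs every transplanted library lay below every cultured one, and neither passed the call. An antisense gene, *D030025P21Rik*, shares 764 exonic bases with *Ltbp2* on the other strand, and the counting is stated to use strand.

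*Ltbp1* (ENSMUSG00000001870, chr17:75005568-75392512, plus strand), which carries the latent complex of TGF-beta to the matrix, was highest in tail fibroblasts in both states. It was at 379, 388 and 399 CPM in TFc and at 184, 231 and 214 CPM in TFs, with a log2 fold change of -0.89 ± 0.19 SE (adjusted p = 0.00198), within the limit of 1. In HFc it was at 86.3, 84.5 and 82.2 CPM and in HFs at 68.8, 66.2 and 75.3 CPM (a log2 fold change of -0.27, adjusted p = 0.256). Every HFs library lay below every HFc library. The value was -0.25 (adjusted p = 0.0185) in the fit without KFs replicate 3. It was -0.21 (adjusted p = 0.0276) in the fit of these 2 groups alone, within the limit of 1 in each fit. In kidney fibroblasts the levels were 82.9, 76.8 and 79.2 CPM in KFc and 68.9, 58.6 and 126 CPM in KFs. Replicate 3 was the only KFs library above KFc. The log2 fold change was 0.09 (adjusted p = 0.729) with it and -0.36 (adjusted p = 0.00468) without it, so that the sign turned.

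*Smad7* (ENSMUSG00000025880), the inhibitory SMAD that blocks and degrades the type I receptor and is itself induced by TGF-beta, was the only member called lower in all 3 organs. The transplanted libraries of *Tgfb3* also lay below the cultured ones in each organ, but its heart estimate of -0.35 was not called. *Smad7* was at 159, 149 and 157 CPM in HFc and at 67.3, 80.6 and 83.0 CPM in HFs, with a log2 fold change of -1.01 ± 0.17 SE (adjusted p = 0.000119). That estimate lay at the limit. It was between -0.99 and -0.865 without HFc replicate 1, HFs replicate 1, HFs replicate 2 or KFs replicate 3, with an adjusted p of at most 0.00123, and the gene was then not called. In kidney fibroblasts it was at 119.9, 119 and 122 CPM in KFc and at 32.4, 45.8 and 56.8 CPM in KFs (a log2 fold change of -1.42 ± 0.17 SE, adjusted p = 7.73e-06), and in tail fibroblasts at 119.5, 122 and 116 CPM in TFc and at 42.1, 28.9 and 28.1 CPM in TFs (a log2 fold change of -1.85 ± 0.17 SE, adjusted p = 1.24e-06). Without KFs replicate 3 the kidney value was -1.66 (adjusted p = 3.94e-07). In no organ did a transplanted library reach a cultured one.

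**Figure D3:**
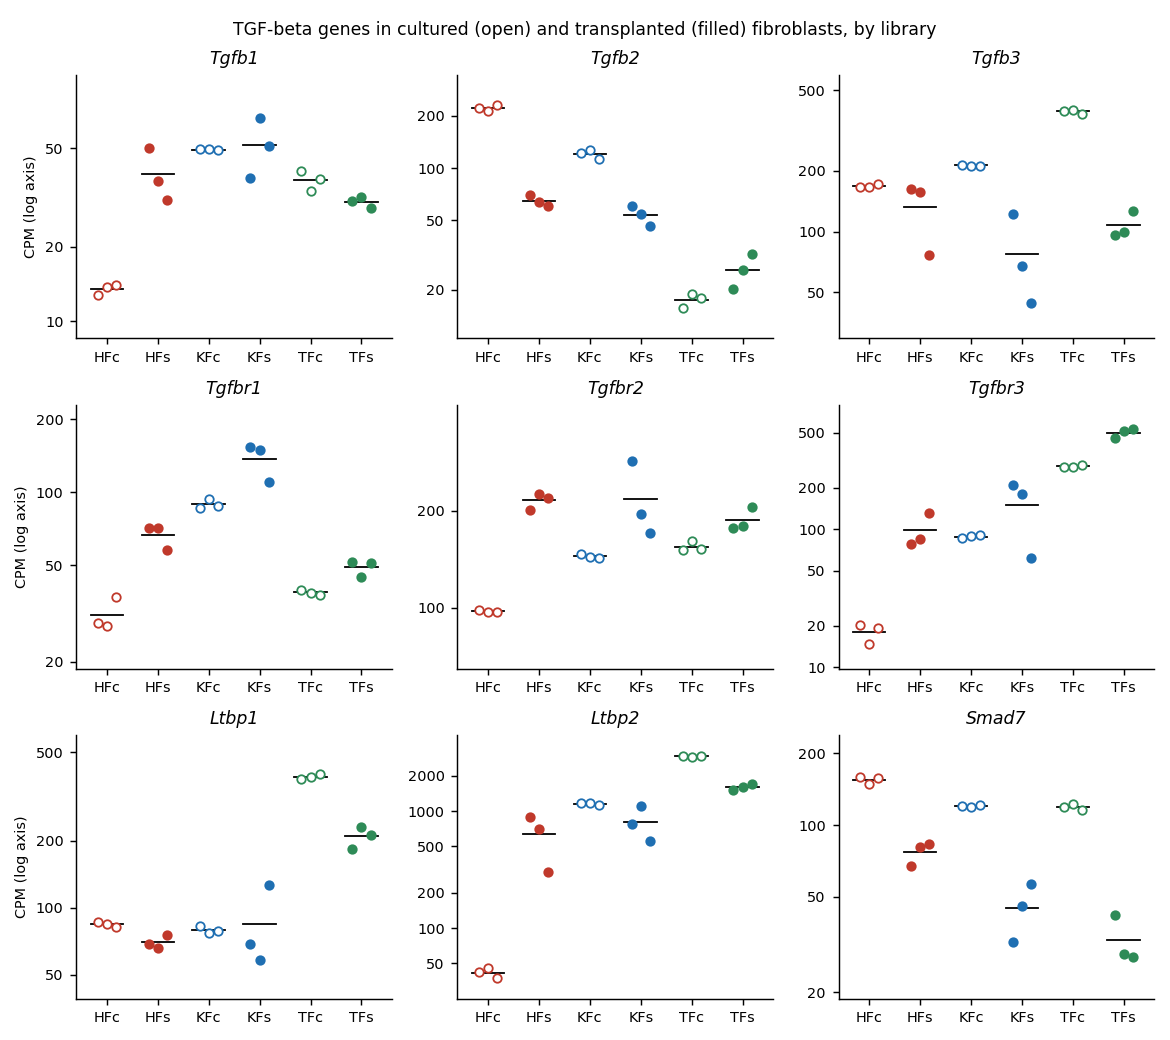
CPM of the 9 genes in each library on a log axis, with open points for cultured and filled points for transplanted cells, red for heart, blue for kidney and green for tail fibroblasts, and a line at each group's mean. HFc is the lowest group for *Tgfb1*, all 3 receptors and *Ltbp2*, and the filled points of *Smad7* lie below the open points of the same organ.

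In culture the organs differed in most of these genes. Between organs a gene was called at an adjusted p under 0.05 alone. In HFc against TFc 7 of the 9 genes were called, 1 higher and 6 lower, beside 41.9% of all genes, 20.9% higher and 21.0% lower. *Tgfb2* was 12.7-fold higher in HFc (a log2 fold change of 3.66 ± 0.15 SE, adjusted p = 7.32e-11), while *Ltbp2* was 71.0-fold and *Tgfbr3* 15.8-fold higher in TFc (log2 fold changes -6.15 ± 0.35 and -3.98 ± 0.34 SE). *Tgfb1*, *Tgfb3*, *Tgfbr2* and *Ltbp1* were lower in HFc as well, with log2 fold changes between -0.67 and -2.21. *Tgfbr1* and *Smad7* were not called, at log2 fold changes of -0.31 (adjusted p = 0.0709) and 0.38 (adjusted p = 0.0808). *Tgfbr1* was called without HFc replicate 3, at -0.44 (adjusted p = 0.0188), and both genes were called in the fit without KFs replicate 3, at -0.33 (adjusted p = 0.0153) and 0.36 (adjusted p = 0.034).

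In KFc against TFc 6 of 9 were called, 2 higher and 4 lower, beside 36.4% of all genes, 17.8% higher and 18.5% lower. The ligand *Tgfb2* (a log2 fold change of 2.78 ± 0.14 SE) and the receptor *Tgfbr1* (1.21 ± 0.13 SE) were higher in KFc. *Ltbp1* (-2.29 ± 0.20 SE), *Tgfbr3* (-1.69 ± 0.31 SE) and *Ltbp2* (-1.35 ± 0.29 SE) were lower. *Tgfb3* was lower too, at -0.89 (adjusted p = 0.0241), but its call was lost when any of the 6 libraries compared was left out, with an adjusted p between 0.0559 and 0.0674. The fit of these 2 groups alone, which have a narrow spread, called it at -0.86 (adjusted p = 4.74e-14). *Tgfb1* was at 0.41 (adjusted p = 0.0775) and was called in the fit without KFs replicate 3, at 0.44 (adjusted p = 0.0487). In HFc against KFc 6 of 9 were called, 1 higher and 5 lower, beside 29.2% of all genes, 15.1% higher and 14.0% lower. *Tgfb2* was higher in HFc (0.88 ± 0.14 SE), and *Ltbp2* (-4.80 ± 0.33 SE), *Tgfbr3* (-2.29 ± 0.32 SE), *Tgfb1* (-1.87 ± 0.18 SE), *Tgfbr1* (-1.52 ± 0.13 SE) and *Tgfbr2* (-0.57 ± 0.13 SE) were lower. Cultured heart fibroblasts were thus below both other organs in *Tgfb1*, *Tgfbr2*, *Tgfbr3* and *Ltbp2* and above both in *Tgfb2*. The 3 cultured comparisons share their groups pairwise. Their counts are set beside a background under TMM scaling. With library size alone all genes together shifted, to 2458 higher and 4458 lower in HFc against TFc, from 3464 and 3479, and to 1823 higher and 2664 lower in HFc against KFc, from 2511 and 2322.

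Among transplanted cells the organs were compared in the same way. In HFs against TFs 6 of 9 were called, 3 higher and 3 lower, beside 23.1% of all genes, 10.3% higher and 12.7% lower. *Tgfb2* (1.31 ± 0.14 SE), *Smad7* (1.22 ± 0.17 SE) and *Tgfbr1* (0.44 ± 0.13 SE, adjusted p = 0.0215) were higher in HFs. *Tgfbr3* (-2.35 ± 0.32 SE), *Ltbp1* (-1.58 ± 0.20 SE) and *Ltbp2* (-1.35 ± 0.29 SE) were lower. The call of *Tgfbr1* was lost without HFs replicate 1, HFs replicate 2 or TFs replicate 2, at an adjusted p between 0.0662 and 0.0988, and with library size alone (0.22, adjusted p = 0.143). *Tgfb1*, at 0.37 (adjusted p = 0.15), was called without HFs replicate 3, at 0.545 (adjusted p = 0.0449). With library size alone all genes together split into 1123 higher and 4597 lower, against 1713 and 2109.

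In KFs against TFs 6 of 9 were called, 3 higher and 3 lower, beside 29.1% of all genes, 15.3% higher and 13.8% lower. *Tgfbr1* (1.49 ± 0.13 SE), *Tgfb2* (1.04 ± 0.14 SE) and *Tgfb1* (0.77 ± 0.18 SE) were higher in KFs, and *Tgfbr3* (-1.74 ± 0.31 SE), *Ltbp1* (-1.31 ± 0.20 SE) and *Ltbp2* (-0.99 ± 0.28 SE) were lower. All 6 were still called without KFs replicate 3, where *Tgfbr2* was called too, at 0.36 (adjusted p = 0.0259). In a fit of these 2 groups alone, with their own wider spread, *Tgfbr1* (adjusted p = 0.00826) and *Tgfb2* (adjusted p = 0.0358) were called and the other 7 were not, and 1137 of all genes were called in place of 4819. *Ltbp2* lost its call without TFs replicate 3 (-0.95, adjusted p = 0.0524). *Tgfb3* (-0.94, adjusted p = 0.00935) and *Smad7* (0.64, adjusted p = 0.00375) were called without KFs replicate 1, and *Smad7* also without TFs replicate 1 (0.66, adjusted p = 0.00844).

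In HFs against KFs 2 of 9 were called, 1 higher and 1 lower, beside 33.2% of all genes, 14.2% higher and 19.0% lower. *Smad7* was higher in HFs (0.78 ± 0.17 SE, adjusted p = 0.00263) and *Tgfbr1* was lower (-1.04 ± 0.13 SE, adjusted p = 3.3e-05). In a fit of these 2 groups alone *Tgfbr1* was called (adjusted p = 0.0308) and *Smad7* was not (adjusted p = 0.0763). Single libraries moved other members across the threshold. Without KFs replicate 3 *Tgfbr3* was lower in HFs (-0.97, adjusted p = 0.000381), and without KFs replicate 1 *Tgfb3* (1.23, adjusted p = 0.00146), *Tgfbr2* (0.23, adjusted p = 0.0446) and *Tgfb1* (-0.58, adjusted p = 0.0101) were called. *Tgfb1* was also called without HFs replicate 1 (-0.58, adjusted p = 0.0196), and *Tgfb3* without HFs replicate 3 (1.04, adjusted p = 0.0115). *Ltbp2*, 27.9-fold apart between these organs in culture, had a log2 fold change of -0.36 after transplantation (95% interval -0.95 to 0.24). With library size alone all genes together split into 1528 higher and 5129 lower, against 2356 and 3148.

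The ratio of the highest to the lowest organ mean was smaller among transplanted than among cultured cells for 8 of the 9 genes, and for 7 of 9 without KFs replicate 3. It went from 71.0 to 2.54 for *Ltbp2*, from 15.8 to 5.10 for *Tgfbr3*, from 12.6 to 2.49 for *Tgfb2* and from 3.65 to 1.70 for *Tgfb1*. For the type I receptor *Tgfbr1* it was 2.86 and 2.80, and without KFs replicate 3 the transplanted ratio was 3.08 and so above the cultured one. The exception with all libraries was *Smad7*, with 1.30 in culture and 2.33 after transplantation. The order of the organs stayed in place at the top for *Tgfb2* (heart, where HFs and KFs overlapped), *Smad7* (heart), *Tgfbr1* (kidney), *Tgfb1* (kidney, where KFs and HFs overlapped) and *Tgfbr3*, *Ltbp1* and *Ltbp2* (tail). *Tgfb3* was highest in TFc and, among transplanted cells, in HFs, whose libraries overlapped those of TFs. *Tgfbr2* was highest in TFc and, among transplanted cells, in KFs, whose libraries overlapped those of HFs. These ratios are a description of group means. The same count was not made over all genes, so the narrowing is not shown to be particular to these 9. Over all genes the share called was 41.9% in culture and 23.1% after transplantation between heart and tail. It was 36.4% and 29.1% between kidney and tail, and 29.2% and 33.2% between heart and kidney. These shares depend on the common spread. In fits of only the groups compared, heart against kidney had 7508 of 14725 genes called in culture and 883 of 15350 after transplantation. Kidney against tail had 8675 of 14956 and 1137 of 15211, and heart against tail 9158 of 14669 and 3792 of 15239. The paper reports a smaller separation of the organ types after transplantation in its scaling plot.

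**Figure D4:**
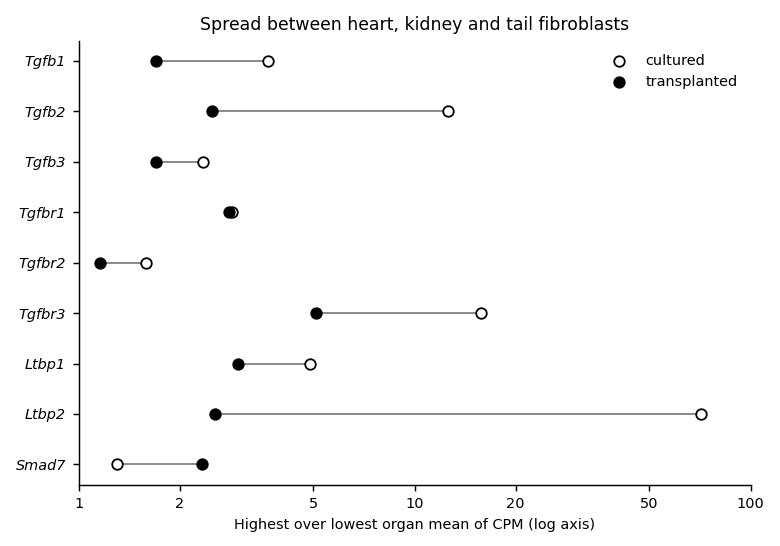
Ratio of the highest to the lowest of the 3 organ means of CPM for each gene, on a log axis, in cultured (open) and transplanted (filled) cells. The filled point lies left of the open point for all genes but *Smad7*, by little for *Tgfbr1* (2.86 and 2.80, and 3.08 without KFs replicate 3), and the widest gap is that of *Ltbp2*, from 71.0 to 2.54.

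Whether the response to transplantation itself differed between organs was tested as an interaction, the log2 fold change in the first organ minus that in the second, at an adjusted p under 0.05. Between heart and tail fibroblasts 8 of 9 genes were called, 7 higher and 1 lower in heart fibroblasts, beside 22.8% of all genes, 10.1% higher and 12.7% lower. The difference was largest for *Ltbp2*, 4.80 ± 0.42 SE, and it was 1.83 ± 0.25 SE for *Tgfb1* and 1.63 ± 0.43 SE for *Tgfbr3*. *Tgfb2* was the gene with the opposite sign, -2.35 ± 0.20 SE, and here every HFs library lay below HFc while every TFs library lay above TFc. The other *Tgfb* and receptor genes and *Smad7* had differences between 0.75 and 1.52. The call of *Smad7* was lost without TFs replicate 2, at 0.755 (adjusted p = 0.052). *Ltbp1* was not called at 0.63 (adjusted p = 0.112), and it was called in the fit without KFs replicate 3, at 0.66 (adjusted p = 0.000587).

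Between kidney and tail fibroblasts 2 of 9 were called, 1 higher and 1 lower, beside 11.1% of all genes, 4.99% higher and 6.07% lower. *Tgfb2* differed by -1.74 ± 0.20 SE (adjusted p = 7.22e-05). *Ltbp1* differed by 0.98 ± 0.27 SE (adjusted p = 0.0312), by 0.55 (adjusted p = 0.00595) without KFs replicate 3, and in 8 of 12 fits without a library it was not called, at an adjusted p between 0.0561 and 0.0732. These 8 leave out a KFc or TFc library, TFs replicate 1 or TFs replicate 3. *Smad7*, at 0.43 (adjusted p = 0.268), was called without KFs replicate 1, at 0.627 (adjusted p = 0.0431).

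Between heart and kidney fibroblasts 5 of 9 were called, 4 higher and 1 lower in heart fibroblasts, beside 26.2% of all genes, 10.7% higher and 15.5% lower. *Ltbp2* (4.45 ± 0.42 SE), *Tgfbr3* (1.68 ± 0.43 SE) and *Tgfb1* (1.47 ± 0.25 SE) kept their calls whichever of the 12 libraries compared was left out. *Tgfbr2* (0.56 ± 0.19 SE, adjusted p = 0.0398) and *Tgfb2* (-0.61 ± 0.19 SE, adjusted p = 0.0282) each lost theirs in 9 of 12 such fits, at an adjusted p of at most 0.0772 and 0.117. *Tgfbr2* was called only without HFs replicate 1, KFs replicate 1 or KFs replicate 3, and *Tgfb2* only without HFc replicate 2, KFc replicate 2 or KFs replicate 3. *Tgfbr1* was gained without HFc replicate 3, HFs replicate 3, KFs replicate 1 or KFs replicate 2 (0.553 to 0.633, adjusted p at most 0.0405), *Tgfb3* without HFs replicate 3 or KFs replicate 1 (1.43 and 1.57, adjusted p at most 0.0125), and *Smad7* without KFs replicate 3 (0.67, adjusted p = 0.0166). The heart comparisons share the HFs and HFc libraries, so their calls are not independent of each other.

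The other genes of the pathway were read from 7 lists with 56 genes, all matched and tested. In HFs against HFc 16 rose and 7 fell, in KFs against KFc 15 rose and 13 fell, and in TFs against TFc 10 rose and 14 fell. The backgrounds given above are 18.3% and 9.33%, 14.7% and 7.99%, and 11.0% and 5.53% of all genes. The median log2 fold change of the 56 genes was 0.40, 0.17 and -0.01. Without KFs replicate 3 the kidney count was 14 higher and 10 lower.

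**Figure D5:**
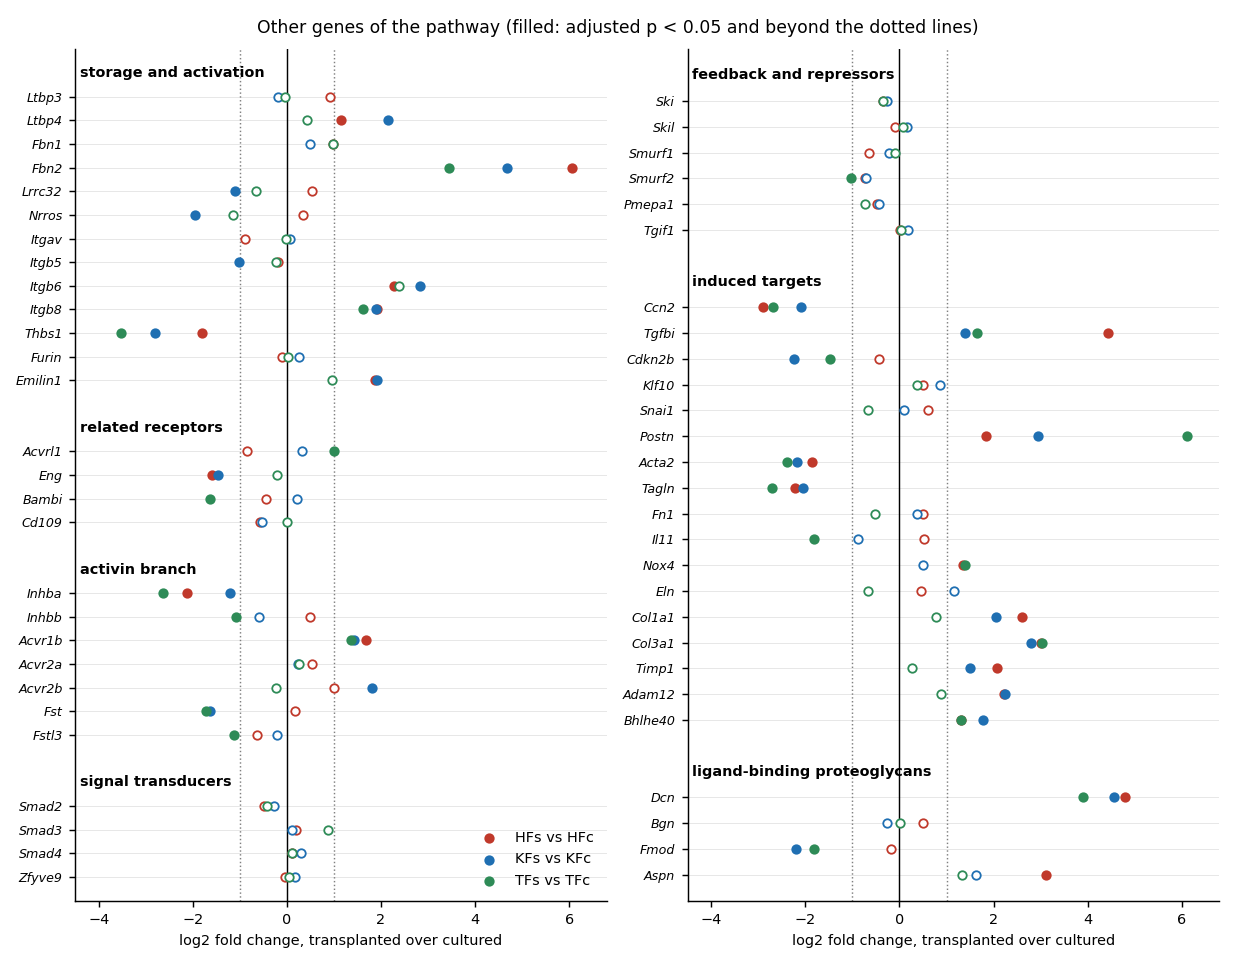
Log2 fold change, transplanted over cultured, of the other pathway genes by list, with 1 of the 56 not drawn, and with heart fibroblasts in red, kidney in blue and tail in green. Filled points passed the adjusted p of 0.05 and the limits at -1 and 1 (dotted), and *Fbn2*, *Dcn* and *Postn* lie far right while *Thbs1* and *Ccn2* lie far left.

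In the storage and activation list, with 13 genes that hold latent TGF-beta in the matrix or free it, 5 rose and 1 fell in heart, 5 rose and 4 fell in kidney and 2 rose and 1 fell in tail fibroblasts. The shares called were 46.2%, 69.2% and 23.1%, beside 27.7%, 22.6% and 16.5% of all genes. Without KFs replicate 3 the kidney count was 4 rising and 2 falling, since *Itgb6*, *Lrrc32* and *Itgb5* were then not called. *Fbn2*, the fibrillin of developing matrix, rose in all 3 organs, from 0.761 to 49.9 CPM in heart fibroblasts (a log2 fold change of 6.06 ± 0.69 SE), from 15.1 to 385 CPM in kidney fibroblasts (4.67 ± 0.57 SE) and from 24.0 to 261 CPM in tail fibroblasts (3.44 ± 0.54 SE). The KFs libraries of *Fbn2* were far apart, with an SD of 359 CPM, and the kidney value was 5.11 without KFs replicate 3. *Itgb8*, a subunit of an integrin that activates latent TGF-beta, rose in all 3 organs too (1.93, 1.90 and 1.63 in heart, kidney and tail). *Ltbp4*, a latent binding protein, rose in heart (1.16 ± 0.18 SE) and kidney fibroblasts (2.14 ± 0.20 SE). *Thbs1*, which encodes the activator thrombospondin 1, fell in all 3 organs, from 7479 to 2138 CPM (-1.81 ± 0.24 SE), from 19220 to 2755 CPM (-2.80 ± 0.25 SE) and from 19480 to 1699 CPM (-3.52 ± 0.25 SE). *Nrros*, which anchors latent TGF-beta on microglia and macrophages, fell in kidney fibroblasts from 5.28 to 1.35 CPM (-1.95, adjusted p = 0.0185), and the sum of the macrophage genes was lower in KFs as well. Its call was lost without KFc replicate 1 (-1.84, adjusted p = 0.0523), and without KFs replicate 3 it was -1.43.

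Of 4 related receptors, *Eng*, which encodes the co-receptor endoglin, fell in heart (-1.59 ± 0.24 SE) and kidney fibroblasts (-1.47 ± 0.24 SE). The decoy receptor *Bambi* fell in tail fibroblasts (-1.64 ± 0.30 SE). *Acvrl1*, the type I receptor ALK1, rose there at the limit (1.00 ± 0.22 SE), and it was at 0.98 and not called in the fit without KFs replicate 3, and at 0.917 to 0.993 without TFc replicate 3, TFs replicate 1 or TFs replicate 2. The activin branch held 7 genes, for subunits of sister ligands that use the same SMAD proteins, for their receptors and for their antagonists. In it 1 rose and 1 fell in heart, 2 and 2 in kidney, and 1 and 4 in tail fibroblasts. Without KFs replicate 3 the kidney counts were 1 and 2. The shares called with all libraries were 28.6%, 57.1% and 71.4%, beside 27.7%, 22.6% and 16.5% of all genes. *Inhba*, the activin A subunit, fell in all 3 organs (-2.12, -1.20 and -2.63 in heart, kidney and tail), with a kidney value of -0.997 and no call without KFs replicate 1. *Acvr1b*, the activin type I receptor, rose in all 3 (1.67, 1.43 and 1.36). *Fst*, which encodes the activin antagonist follistatin, fell in kidney (-1.64 ± 0.20 SE) and tail fibroblasts (-1.72 ± 0.20 SE). *Acvr2b*, an activin type II receptor at 0.494 CPM in KFc, rose in kidney fibroblasts (1.81), but not without KFs replicate 3 (1.01, adjusted p = 0.129) or KFc replicate 3 (1.51, adjusted p = 0.0655).

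None of the 4 signal transducers was called in any organ, and none of the 6 feedback and repressor genes was called except *Smurf2* in tail fibroblasts. The shares over all genes were 27.7%, 22.6% and 16.5% in heart, kidney and tail. *Smurf2*, a ubiquitin ligase that works with SMAD7, had a log2 fold change of -1.02 ± 0.06 SE, which lay at the limit and was -0.998 without TFs replicate 2. With DESeq2 in place of edgeR it was -0.984. In heart and kidney fibroblasts *Smurf2* fell within the limit (-0.73, adjusted p = 9.44e-08, and -0.72, adjusted p = 1.63e-07). *Pmepa1* (-0.48, -0.44 and -0.73 in heart, kidney and tail) and *Smad2* (-0.48, -0.28 and -0.42) fell within it in all 3 organs. Their adjusted p was at most 0.0264. *Smad3* rose within it in tail (0.87, adjusted p = 0.000806) and *Smad4* in kidney fibroblasts (0.29, adjusted p = 0.00249). No groups overlapped here. Of the 4 ligand-binding proteoglycans, 2 rose in heart, 1 rose and 1 fell in kidney, and 1 rose and 1 fell in tail fibroblasts, with medians of 1.81, 0.68 and 0.66, and without KFs replicate 3, when *Aspn* was called as well (2.15, adjusted p = 0.000962), 2 rose and 1 fell in kidney. *Dcn*, which encodes the ligand-binding proteoglycan decorin, rose in all 3 organs, from 57.2 to 1593 CPM (4.80 ± 0.58 SE), from 13.5 to 322 CPM (4.57 ± 0.58 SE) and from 42.8 to 636 CPM (3.90 ± 0.56 SE). The SD of *Dcn* in KFs was 250.5 CPM, and the kidney value was 5.05 without KFs replicate 3. *Aspn*, encoding asporin, rose in heart fibroblasts (3.11 ± 0.84 SE). *Fmod*, encoding fibromodulin, fell in kidney (-2.21) and tail fibroblasts (-1.82), but its tail call (adjusted p = 0.039) was lost whichever of the 6 libraries was left out, at an adjusted p between 0.0676 and 0.133, and its kidney call was lost without KFs replicate 2 (-1.83, adjusted p = 0.0539).

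Genes that TGF-beta is known to induce moved in both directions. Of 18, 8 rose and 4 fell in heart, 7 rose and 5 fell in kidney and 5 rose and 6 fell in tail fibroblasts, with 7 and 4 in kidney without KFs replicate 3, and their median log2 fold changes were 0.56, 0.69 and -0.13. The shares called with all libraries were 66.7%, 66.7% and 61.1%, beside 27.7%, 22.6% and 16.5% of all genes. The matrix genes *Col3a1* and *Postn* and the secreted *Tgfbi* rose in all 3 organs, as did the transcriptional repressor gene *Bhlhe40* (1.30, 1.77 and 1.30 in heart, kidney and tail). *Col3a1* was at 3.00, 2.80 and 3.03 in heart, kidney and tail. *Postn*, which encodes periostin, reached 6.12 ± 0.54 SE in tail fibroblasts, from 11.3 to 788 CPM, and *Tgfbi* 4.43 ± 0.20 SE in heart fibroblasts, from 5.57 to 120.1 CPM. The matricellular gene *Ccn2* and the contractile genes *Acta2* and *Tagln* fell in all 3. The values in heart, kidney and tail were, for *Ccn2*, -2.90, -2.08 and -2.70, for *Acta2*, -1.85, -2.18 and -2.39, and, for *Tagln*, -2.23, -2.05 and -2.71. *Cdkn2b*, a cell cycle inhibitor, fell in kidney (-2.23 ± 0.23 SE) and tail fibroblasts (-1.48 ± 0.23 SE). Genes of this list were named by the size of their change, and those called in all 3 organs were added.

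Genes with the pattern most like each member were read from Pearson correlations of log2 CPM over the 18 libraries, which share 6 groups and a common scaling, so these are descriptions without a test. The highest values were r = 0.977 between *Ltbp2* and *Nfatc4*, 0.975 between *Ltbp1* and *Homer2*, and 0.970 for *Tgfb2* with *Dab2ip* and *Tnfrsf11b* and for *Smad7* with *Ddr1*. *Tgfbr3* was most like *Csgalnact1* (0.968), *Rspo3* (0.967) and *Zfp783* (0.966). *Tgfb1* was most like *B4galnt1* (0.953), *Tgfb3* like *Chpf* (0.951), *Tgfbr2* like *Gpr153* (0.953) and *Tgfbr1* like *Elfn1* (0.940). Among the 9 genes themselves, *Tgfb2* ran against *Tgfbr3* (r = -0.887), *Ltbp2* (-0.812) and *Ltbp1* (-0.785), and *Tgfbr3* ran with *Ltbp2* (0.867). *Tgfb1* ran with *Tgfbr1* (0.771) and *Ltbp2* (0.769), and *Smad7* ran against *Tgfbr2* (-0.750).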

How the data were processed

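RNA of 18 samples, 3 in each of 6 groups, was read from 1 end, 75 bases long, in stranded total RNA libraries. The authors aligned reads with Bowtie2 and estimated gene counts with RSEM on GRCm38 by their methods, while the labels name mm9, and the deposited values are expected counts, here all whole numbers and used as deposited. Symbols came from GENCODE mouse release 21 (GRCm38), which named 37607 of the 38924 Ensembl IDs, and 1317 had none. Coordinates and exon lengths are from that annotation.

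Genes passing filterByExpr (16577) were fitted with edgeR 4.0.16 (R 4.3.3), TMM scaling, a mean per group over all 18 libraries and the quasi-likelihood test, with Benjamini-Hochberg adjustment over all genes in each of 12 comparisons. Intervals cover 95%. CPM used TMM scaling, and CPM per kb was divided by the union of exons. The alternatives were DESeq2 1.42.0, its size factors, library size alone, no filter, a mean of at least 10 counts, a replicate block, only the groups compared, and leaving out each library. Those for the other pathway genes, and the fit without KFs replicate 3 outside its own comparisons, were added after seeing the data. The code was tested on simulated data.

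The 9 genes and the lists were chosen with earlier results of these data known. Other pathway genes were named as the 2 largest rises and falls per list and organ among called genes whose groups did not overlap, and genes called in all 3 organs were added, as were *Itgb5*, *Itgb6* and *Lrrc32* after their values were seen. The changes within the limit of *Acvrl1*, *Smurf2*, *Pmepa1*, *Smad2*, *Smad3* and *Smad4* were also added after their values were seen. The 3 genes most correlated with each of the 9 were computed. Of the 18 induced targets, 1 enters the counts and medians but is not reported here by name.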

Additional observations from a re-analysis of the deposited data

Results flagged for a closer look

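The test of the difference between organs in the response to transplantation passed an adjusted p of 0.05 (edgeR) for the following genes, and each difference is given on the log2 scale with no explanation. Between heart and tail fibroblasts the response of *Tgfb1* differed by 1.83, that of *Tgfb2* by -2.35, that of *Tgfb3* by 1.52, that of *Tgfbr1* by 0.75, that of *Tgfbr2* by 0.87, that of *Tgfbr3* by 1.63, that of *Ltbp2* by 4.80 and that of *Smad7* by 0.84. Between kidney and tail fibroblasts *Tgfb2* differed by -1.74 and *Ltbp1* by 0.98. Between heart and kidney fibroblasts *Tgfb1* differed by 1.47, *Tgfb2* by -0.61, *Tgfbr2* by 0.56, *Tgfbr3* by 1.68 and *Ltbp2* by 4.45. In groups of 3 libraries single outlying values were not tested.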

How the results depend on the processing

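Of the log2 fold changes of the 9 genes recomputed under alternatives, 1509 kept direction and side of the threshold, 45 gained and 58 lost a call, and 17 turned sign. The fit of only the groups compared left 2 genes in KFs against TFs (from 6), 1 in HFs against KFs (from 2) and 1 in the kidney against tail response (from 2), gave 6 in HFs against HFc (from 7) and 4 in the heart against kidney response (from 5), and raised the calls in HFc against TFc to 9 (from 7), in KFc against TFc to 7 (from 6), in HFc against KFc to 8 (from 6) and in the heart against tail response to 9 (from 8). Over all genes it gave 7508 in HFc against KFc (from 4833), 1137 in KFs against TFs (from 4819) and 883 in HFs against KFs (from 5504). Library size alone gave 4 of the 9 genes in HFs against KFs. It moved the median of all genes to -0.16 in HFc against TFc, -0.11 in KFc against TFc, -0.25 in HFs against TFs, -0.25 in HFs against KFs, 0.15 in KFs against KFc, -0.14 in the heart against kidney response and 0.12 in the kidney against tail response.

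Leaving out 1 library at a time, the genes called of 9 were 6 to 7 in HFs against HFc, 3 to 4 in KFs against KFc, 2 in TFs against TFc, 7 to 9 in HFc against TFc, 5 to 7 in KFc against TFc, 6 in HFc against KFc, 5 to 7 in HFs against TFs, 5 to 8 in KFs against TFs and 2 to 5 in HFs against KFs. In the responses they were 7 to 9 for heart against tail, 1 to 3 for kidney against tail and 3 to 6 for heart against kidney. Over all genes, KFs against TFs had 3183 calls without TFs replicate 3 (from 4819), and the kidney against tail response had 3619 without KFs replicate 3 and 1198 without TFc replicate 3 (from 1835).

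The sign of *Tgfbr2* in HFs against KFs (-0.01) turned to 0.02 with DESeq2, 0.02 with its size factors, 0.015 with a mean of at least 10 counts, 0.00 with the replicate block, 0.019 with only the groups compared, 0.06 without HFs replicate 1 and 0.23 without KFs replicate 1. With library size alone *Smad7* turned to -0.052 in KFc against TFc, *Ltbp1* to -0.01 in HFc against KFc and *Tgfbr2* to -0.021 in HFs against TFs. Leaving out 1 KFs library, *Tgfbr2* ran from -0.034 to 0.356 in KFs against TFs and *Tgfb3* from -0.047 to 0.677 in the kidney against tail response, with the negative values without replicate 1. *Tgfb1* ran from -0.20 (without replicate 2) to 0.246 in KFs against KFc. Without replicate 3 *Ltbp1* turned to -0.36 in KFs against KFc (0.243 at the other end), 0.15 in HFs against KFs (-0.457) and 0.115 in the heart against kidney response (-0.493), and *Tgfbr3* to 0.30 in the kidney against tail response. *Smad7* in HFs against HFc stayed between -0.97 and -0.95 and lost its call with DESeq2, its size factors, no filter, a mean of at least 10 counts and only the groups compared. The cause was not tested.

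Libraries with the same replicate number deviated together no more than others on average (mean correlation -0.013 against 0.006). The main fit used no pairing. That mean includes pairs from different organs, with 3 libraries per group, so it cannot exclude that libraries shared a donor or a culture. Blocking on the replicate number left 4 of the 9 genes in the heart against kidney response (from 5), with *Tgfbr2* at 0.57 (adjusted p = 0.0514), and no other call among the 9 genes changed.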
